A study of Mus musculus with 12 samples.

Results

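The genes described here code for 9 secreted ligands that act on blood and lymph vessels or are related to such ligands. They are Vegfa, Vegfb, Vegfc and Pgf of the vascular endothelial growth factor (VEGF) family, the angiopoietins Angpt1 and Angpt2, and the angiopoietin-like genes Angptl2, Angptl4 and Angptl7. They were chosen by symbol as 9 of the 55418 gene symbols in the count table, and all 9 were found there. Single ScxGFP+ cells were picked under a micromanipulator from non-injured, untreated Achilles tendons of mice on a C57BL/6 background. Of these, 6 from Tnmd-/- ScxGFP+ and 6 from Tnmd WT ScxGFP+ mice (WT) were sequenced. The methods give more cells per genotype at the picking step than were sequenced. How the 6 were chosen is not given in the sources used here. ScxGFP is a fluorescent reporter of Scleraxis, a transcription factor of tendon lineage cells, and both genotypes carried it. Tnmd was deleted constitutively and in every cell type of the animal, and since it is X-linked, mice taken as WT were males with their single allele intact or females with 1 or 2 intact alleles. The tendons were digested with collagenase for 8 h before the cells were picked, the methods give n = 2 for the tendons, the animal or tendon behind a cell is not named, and the age of the mice whose cells were picked is not given in the sources used here. Each genotype was therefore taken as 1 sample of 6 cells, there are no replicates, and no test was made between genotypes.

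Vegfa is the principal growth factor for blood vessel endothelium and acts through the receptors Kdr and Flt1. Pgf and Vegfb bind Flt1 alone among the VEGF receptors, while Vegfc acts through Flt4 and drives lymph vessel growth. Angpt1 activates the endothelial receptor Tek, and Angpt2 often opposes it. The angiopoietin-like proteins share the fold of the angiopoietins but do not bind Tek: Angptl4 is best known as an inhibitor of lipoprotein lipase, Angptl2 has been tied to integrin signalling and inflammation, and Angptl7 is known from cornea and other matrix-rich tissue. Mature tendon is poor in vessels, and Tnmd, a membrane glycoprotein of tendon cells, carries a cleavable domain that inhibits the migration of vascular cells. The question here was which of these ligands the ScxGFP+ cells contained, cell by cell, with and without Tnmd.

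Most counts of the angiopoietin-like genes came from WT cells and most counts of Vegfa from Tnmd-/- cells, in each case from 1 to 3 cells. The other 5 ligands, Vegfb, Vegfc, Pgf, Angpt1 and Angpt2, had 0 counts in all 12 cells. Values were raw counts, that is reads mapped uniquely to the exons of a gene in 1 cell, without molecular identifiers. CPM are these counts after scaling to a total of 1000000, either that of the cell or the summed one of a genotype. A gene was taken as detected in a cell from 10 counts upwards.

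The 9 genes lie on 7 chromosomes of the mouse genome GRCm38, and the counted ones are described by the GENCODE M21 annotation as follows. Vegfa occupies chr17:46016993-46032369 on the minus strand with 13 annotated transcripts, which the counts per gene do not resolve. Angptl4 lies on the same chromosome and strand at chr17:33773750-33781830. Angptl2 lies at chr2:33216069-33247717 on the plus strand and Angptl7, with 1 transcript, at chr4:148495183-148500460 on the minus strand. The exons of these 4 genes shared 0% of their bases with another gene. Of the remaining 5 ligands, Angpt1 alone shared exon bases, 14.2% of them, with Gm17473 on the opposite strand.

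The stretches of 250 bases just upstream of the RefSeq start of Vegfa, Angptl2 and Angptl7 (GRCm38.p6) are printed because these 3 ligands reached 10 counts in more than 1 cell each and in cells that did not coincide. They are written 5′ to 3′ on the strand of the gene, with the letters CANNTG in capitals. This motif, the E-box, reads the same on both strands and is the kind of site that Scleraxis and other basic helix-loop-helix factors recognise. Windows were found for 6 of the 9 ligands. For Vegfa RefSeq gives a further start within the gene, and the window printed is the one that matches the start of a GENCODE transcript.
Vegfa, chr17:46032378-46032627, minus strand: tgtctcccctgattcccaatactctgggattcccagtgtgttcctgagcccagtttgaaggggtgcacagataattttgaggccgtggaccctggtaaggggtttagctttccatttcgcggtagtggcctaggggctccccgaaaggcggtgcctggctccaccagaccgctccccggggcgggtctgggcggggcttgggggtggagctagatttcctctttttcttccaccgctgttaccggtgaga
Angptl2, chr2:33215711-33215960, plus strand: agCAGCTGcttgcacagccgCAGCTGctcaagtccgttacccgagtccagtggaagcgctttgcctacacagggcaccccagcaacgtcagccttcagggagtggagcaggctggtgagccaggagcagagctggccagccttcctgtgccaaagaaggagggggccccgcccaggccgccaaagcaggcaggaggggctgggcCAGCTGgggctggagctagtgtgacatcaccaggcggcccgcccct
Angptl7, chr4:148500463-148500712, minus strand: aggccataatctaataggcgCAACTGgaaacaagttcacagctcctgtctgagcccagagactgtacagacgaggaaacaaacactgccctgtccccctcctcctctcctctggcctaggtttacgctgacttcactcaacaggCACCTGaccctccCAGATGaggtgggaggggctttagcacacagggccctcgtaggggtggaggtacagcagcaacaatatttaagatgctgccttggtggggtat

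CANNTG occurred 0 times in the printed Vegfa window, 3 times in the Angptl2 window and 3 times in the Angptl7 window, against at least 1 match in 66.2% of 32851 windows of this length over the genome. GGGCGG, the GC box, was found 2 times each upstream of Vegfa and Angptl2 and 0 times upstream of Angptl7, and 32.7% of all windows held it on either strand. The letters ACGTG, the core of the hypoxia response element, and TATAAA were in none of the 3 windows on either strand, while 16.6% and 12.4% of all windows held them. The second Vegfa window, chr17:46025164-46025413, held CANNTG 2 times, GGGCGG 1 time, ACGTG 1 time and TATAAA 0 times, so that the count for Vegfa depends on the start that is taken. The RefSeq start used for Angptl2 lies upstream of the start of the gene in GENCODE. These matches describe the sequence and were not set against the counts.

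The depth of the cells and their quality bear on each of these counts. Total counts were 892713 to 10333351 in Tnmd-/- cells, with a median of 6026579, and 4516036 to 13613080 in WT cells, with a median of 9005433. A floor of 3 counts stands for 0.220 to 3.36 CPM in a single cell, for 0.0855 CPM over all Tnmd-/- cells together and for 0.0561 CPM over all WT cells. In Tnmd-/- cell 3 the mitochondrial share of the total was 51.8%, against 1.75% to 7.30% elsewhere. The study graded the cells by RNA degradation, and in the annotation of its heat map Tnmd-/- cells 9, 10 and 20 and WT cells 4, 5 and 10 were less degraded. Tnmd itself had 10178 counts in WT cell 14 and 7 in WT cell 2, and 0 in the other 4 WT cells. In the Tnmd-/- cells it had 5 counts in cell 20, 2 in cell 9, 1 in cell 1 and 0 in the others, so that Tnmd set 1 WT cell apart and checked no other label. Of the tendon fibroblast markers Dcn, Comp, Prg4 and Col1a2 reached 10 counts in all 12 cells. Scx reached 10 counts in 3 WT cells and in 0 Tnmd-/- cells, with 3 counts against 2074 in the sums.

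Of the 108 combinations of ligand and cell, 10 reached 10 counts and a further 12 held 1 to 9 counts. At least 1 ligand was detected in 9 of the 12 cells. Tnmd-/- cells 9 and 20 and WT cell 2 had none, although Tnmd-/- cell 9 was the deepest cell of its genotype with 10333351 counts. A single cell, WT cell 10, had more than 1 ligand, namely Angptl2 and Angptl4. Vegfa and Angptl7 were detected together in 0 cells, and so were Vegfa and Angptl2, and Angptl2 and Angptl7. How often other pairs of genes detected in so few cells shared none was not computed.

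**Figure D1:**
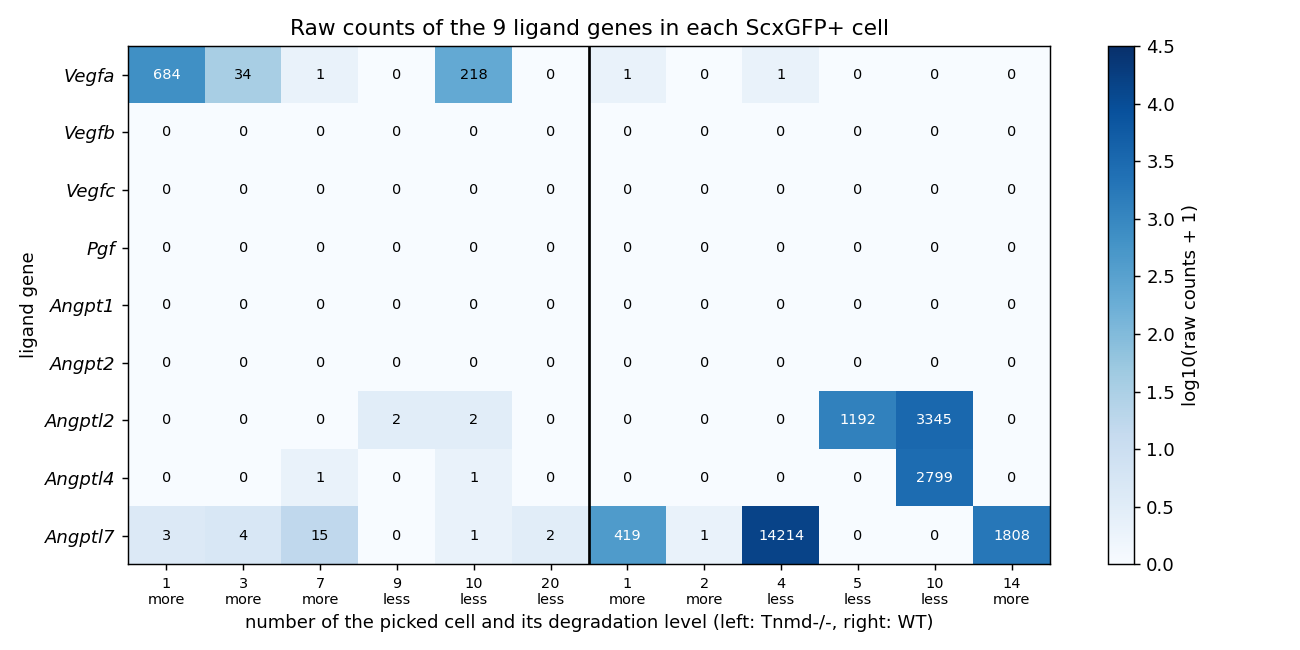
Raw counts of the 9 ligand genes (vertical axis) in each of the 12 cells (horizontal axis, by number and degradation level), with the colour on a scale of log10(counts + 1). The 5 empty lines are Vegfb, Vegfc, Pgf, Angpt1 and Angpt2, and the darkest field is Angptl7 in WT cell 4 with 14214 counts.

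Counts confined to few cells were common in these data. Among the 6067 genes with 500 to 20000 counts over all cells, the range in which all 4 counted ligands fell, the median gene reached 10 counts in 3 cells, and 72.8% of the genes did so in 1 to 4 cells. Vegfa was detected in 3 cells, Angptl2 in 2, Angptl4 in 1 and Angptl7 in 4. A gene detected in 1 cell is always confined to 1 genotype. How often genes detected in as few cells as these ligands were confined to 1 genotype was not computed. No ligand reached 10 counts in 6 or more cells, which was the minimum for naming the genes whose pattern was most like it, so no such gene is named.

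Vegfa was detected in 3 of 6 Tnmd-/- cells (exact 95% interval of the share 11.8% to 88.2%) and in 0 of 6 WT cells (0% to 45.9%). Its raw counts in Tnmd-/- cells 1, 3, 7, 9, 10 and 20 were 684, 34, 1, 0, 218 and 0. In the WT cells they were 1 in cell 1, 1 in cell 4 and 0 in cells 2, 5, 10 and 14. The 3 cells with Vegfa were all Tnmd-/-, but the genotypes overlapped, since Tnmd-/- cells 9 and 20 stood at 0 like 4 of the WT cells. On the CPM scale the level was 129 in Tnmd-/- cell 1, 22.6 in cell 3 and 21.2 in cell 10, and at most 0.167 in any WT cell. Divided by a total without mitochondrial genes, the level in cell 3 was 46.9 CPM. When each cell was thinned at random to the 892713 counts of the shallowest, Tnmd-/- cells 1, 3 and 10 still held 105, 18 and 18 counts of Vegfa.

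The angiopoietin-like genes showed the other arrangement. Angptl2 was detected in 2 of 6 WT cells (exact 95% interval of the share 4.33% to 77.7%) and in 0 of 6 Tnmd-/- cells. WT cell 10 held 3345 counts of Angptl2 and WT cell 5 held 1192, and the other 4 WT cells had 0. Tnmd-/- cells 9 and 10 had 2 counts each and the other 4 had 0. The high values were thus those of 2 less degraded WT cells, at 246 and 99.2 CPM, and all remaining cells of both genotypes lay at or below 0.194 CPM.

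Angptl4 was detected in 1 of the 12 cells. WT cell 10 held 2799 counts (206 CPM), the other 5 WT cells had 0, and Tnmd-/- cells 7 and 10 had 1 count each. What is said of Angptl4 between the genotypes therefore rests on a single cell, the one that also had the highest Angptl2 level.

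Angptl7 was the most widely counted ligand and the one with the most counts. It was detected in 3 of 6 WT cells (exact 95% interval of the share 11.8% to 88.2%) and in 1 of 6 Tnmd-/- cells (0.421% to 64.1%). Its raw counts in WT cells 1, 2, 4, 5, 10 and 14 were 419, 1, 14214, 0, 0 and 1808. In Tnmd-/- cells 1, 3, 7, 9, 10 and 20 they were 3, 4, 15, 0, 1 and 2. WT cells 4, 14 and 1, at 1140, 400.4 and 69.9 CPM, stood above every Tnmd-/- cell, of which cell 7 was the highest with 16.8 CPM, whereas WT cells 5 and 10 at 0 and WT cell 2 at 0.207 CPM lay within the range of the Tnmd-/- cells. WT cell 14, the only cell with at least 10 counts of Tnmd, also had Angptl7, and the other 3 cells with Angptl7 did not have Tnmd.

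**Figure D2:**
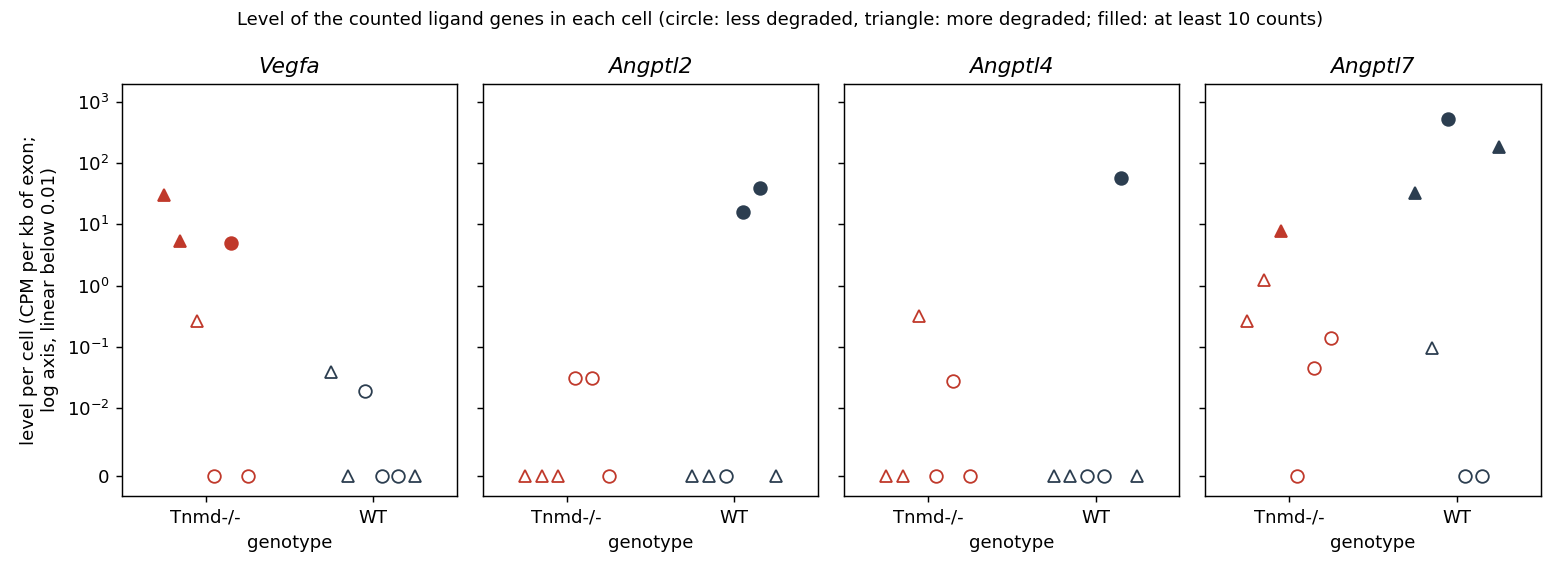
Level per cell in CPM per kb of exon (vertical log axis, linear below 0.01) of Vegfa, Angptl2, Angptl4 and Angptl7 in the 6 Tnmd-/- and 6 WT cells, with each point a cell, circles for less and triangles for more degraded cells, and filled points for at least 10 counts. Filled points of Vegfa are on the Tnmd-/- side alone, those of Angptl2 and Angptl4 on the WT side alone, and Angptl7 has 3 filled WT points and 1 filled Tnmd-/- point.

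Within a cell, the place of a ligand among all genes depended on the cell. Ranked by CPM per kb of exon length, Angptl7 was number 103 in WT cell 4, 326 in WT cell 14 and 1204 in WT cell 1, and number 1046 in Tnmd-/- cell 7. Angptl4 was number 732 and Angptl2 number 1009 in WT cell 10, and Angptl2 was number 1866 in WT cell 5. Vegfa came at number 1298 in Tnmd-/- cell 1, 1153 in cell 3 and 2390 in cell 10. These cells had 3505 to 5636 genes with at least 1 count. Vegfa in Tnmd-/- cell 10, at 2390 of 4943 such genes, was near the middle. The other ligands named here stood nearer the top of their cells.

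Between ligands, levels were compared only per length, on the scale of CPM per kb in the sum over a genotype. The order in the WT cells was Angptl7 at 143 (exact Poisson 95% interval 140.5 to 145), Angptl4 at 14.8 (14.2 to 15.4), Angptl2 at 13.5 (13.1 to 13.9) and Vegfa at 0.00873 (0.00106 to 0.0316). Angptl4 and Angptl2 were neighbours whose counting intervals did not meet, yet their spread over cells was far wider, 0 to 58.1 and 0 to 39.1 CPM per kb, and they exchanged places when length was left out. The order in the Tnmd-/- cells was Vegfa at 6.23 (5.84 to 6.64), Angptl7 at 0.330 (0.214 to 0.488), Angptl2 at 0.0181 (0.00494 to 0.0464) and Angptl4 at 0.0161 (0.00195 to 0.0581), the last pair within each other's interval. For the 5 ligands at 0, the sums over 6 cells allowed no more than 0.0202 to 0.0655 CPM per kb in the Tnmd-/- cells and 0.0133 to 0.0430 in the WT cells, as the upper ends of the intervals. These intervals cover counting error only, because amplified reads are not independent molecules.

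Counts were then summed over the cells of each genotype and the sums compared as a log2 ratio of CPM, Tnmd-/- over WT. Vegfa had 937 against 2 counts (26.7 against 0.0374 CPM), a log2 ratio of 9.48 (95% counting interval 7.62 to 12.53). Angptl2 had 4 against 4537 counts (0.114 against 84.9 CPM), a log2 ratio of -9.54 (-11.42 to -8.18). Angptl4 had 2 against 2799 counts, a log2 ratio of -9.84 (-12.89 to -7.99). Angptl7 had 25 against 16442 counts (0.712 against 308 CPM), a log2 ratio of -8.75 (-9.38 to -8.19). Thus 1 ligand was at least 2-fold higher and 3 were at least 2-fold lower in the Tnmd-/- sum, and the 5 ligands without counts gave no ratio. The same 2-fold step upwards was taken by 39.7% and downwards by 38.3% of the 9768 genes that reached 20 counts when all cells were added up, whose median log2 ratio was 0.08. Most genes with that many counts therefore differed by 2-fold between these sums, in either direction about as often, and passing 2-fold does not set the ligands apart.

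Single cells carried these ratios. Tnmd-/- cell 1 supplied 73.0% of the Vegfa counts of its genotype, and without it the log2 ratio was 7.83. Because the WT sum rested on 1 count in each of 2 cells, leaving out WT cell 1 gave 10.31 and leaving out WT cell 4 gave 10.10. WT cell 10 supplied 73.7% of the WT counts of Angptl2, with a log2 ratio of -8.04 without it. It supplied all WT counts of Angptl4, which was left with 2 counts against 0 and no ratio, and without Tnmd-/- cell 7 the ratio of Angptl4 was -10.81. WT cell 4 supplied 86.4% of the WT counts of Angptl7, and the log2 ratio was -6.25 without it and -10.04 without Tnmd-/- cell 7.

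The ratios of Angptl4 and Angptl7 moved with the scaling. With DESeq2 size factors their log2 ratios were -4.47 and -3.44, with edgeR TMM factors -5.49 and -4.11, and with equal weight for each cell -7.40 and -6.30. The direction of all 4 ligands was the same under each of these scalings, and Vegfa and Angptl2 stayed within their counting intervals. The median of all genes was 0.19 with DESeq2 size factors and -0.05 with either of the others, against 0.08 with summed totals. The ratios of Angptl4 and Angptl7 moved much further, from -9.84 and -8.75 with summed totals. Tnmd-/- cell 7, with 1 count of Angptl4 and 15 of Angptl7, had the smallest DESeq2 size factor, 0.0319.

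**Figure D3:**
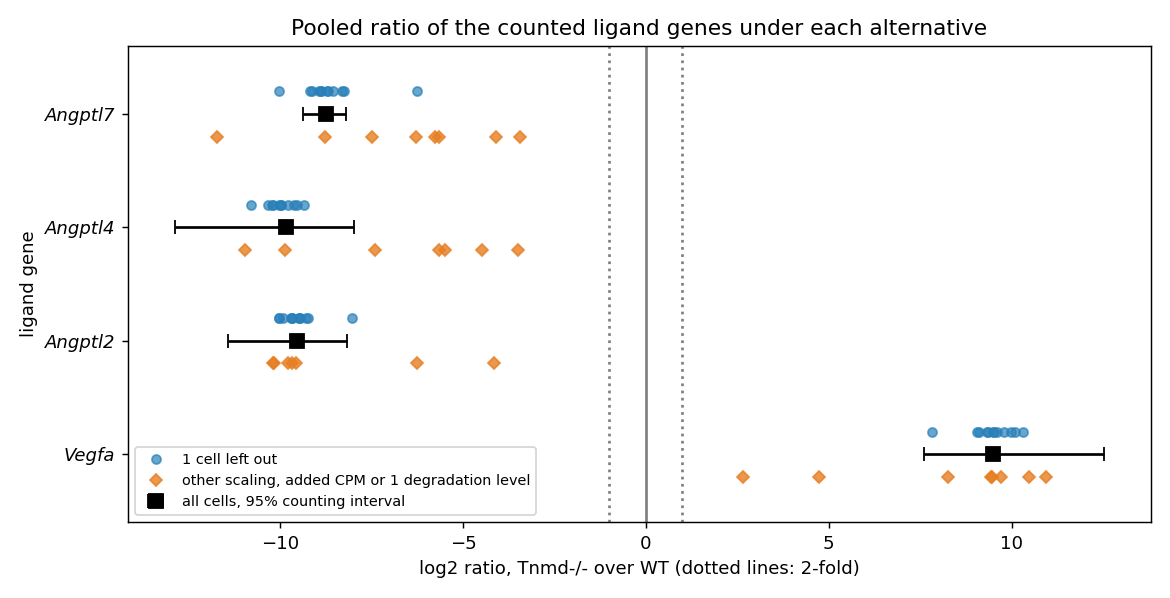
Pooled log2 ratio, Tnmd-/- over WT (horizontal axis), of the 4 counted ligands (vertical axis), with squares and bars for all cells and their 95% counting interval, circles for sums with 1 cell left out, and diamonds for another scaling, added CPM or cells of 1 degradation level. Vegfa lies between 2.65 and 10.95 throughout, and the 3 angiopoietin-like genes lie between -11.73 and -3.44.

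The degradation level divided the ligands as well. Among the less degraded cells, 3 of each genotype, Vegfa had 218 against 1 count (log2 ratio 8.25, counting interval 5.75 to 13.56) and Angptl7 had 3 against 14214 (-11.73, -14.01 to -10.19). Among the more degraded cells Vegfa had 719 against 1 count (10.48, 8.00 to 15.79) and Angptl7 had 22 against 2228 (-5.67, -6.35 to -5.07). Vegfa was thus higher and Angptl7 lower in the Tnmd-/- sum at both levels. Among the less degraded cells, however, each of these differences rested on 1 cell. All 218 Tnmd-/- counts of Vegfa came from Tnmd-/- cell 10, and all 14214 WT counts of Angptl7 came from WT cell 4. Among the more degraded cells, 2 Tnmd-/- cells reached 10 counts of Vegfa. For Angptl7, 2 WT cells and 1 Tnmd-/- cell did so. Angptl2 and Angptl4 were detected in less degraded WT cells alone: the more degraded cells held 0 counts of Angptl2 in both genotypes, and 1 against 0 counts of Angptl4, so that no ratio could be formed there.

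Markers of other cell types differed between the cells with a ligand. The summed level of 11 endothelial markers was 0 to 31.1 CPM in Tnmd-/- cells and 0 to 0.220 CPM in WT cells. The highest value was that of Tnmd-/- cell 1, the cell with most Vegfa, where Pecam1, an adhesion molecule of endothelial and some blood cells, had 160 counts. Pecam1 was the only endothelial marker that reached 10 counts in any cell, and Cdh5, Tie1, Emcn, Egfl7 and Erg were at 0 in all 12. In Tnmd-/- cell 3, also with Vegfa, the fatty acid binding protein gene Fabp4 had 1387 counts, while 4 of the 6 adipocyte markers were at 0 in all cells and the summed adipocyte level of the other cells was at most 0.622 CPM. In Tnmd-/- cell 10, the third with Vegfa, the endothelial and adipocyte sums were both 0 CPM, the mural sum was 96.7 CPM and the sum of 6 cartilage markers was 15508 CPM, the highest of the Tnmd-/- cells. The cartilage sum was 212 to 15508 CPM in Tnmd-/- and 3196 to 21719 CPM in WT cells. Acan, the cartilage proteoglycan aggrecan, had 10741 counts in Tnmd-/- cell 10 and 8768 in Tnmd-/- cell 9, which had 0 counts of Vegfa, and its log2 ratio was 4.30 (4.22 to 4.37). Sox9, a transcription factor of cartilage, had 2.07 (2.00 to 2.15). Chad, the highest of the cartilage markers per length, had 0.07 (0.06 to 0.08). It made up 148637 of the 159803 cartilage counts in Tnmd-/- cell 10. Col2a1, Col9a1 and Matn3 had 0 counts in all 12 cells.

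Of 7 immune markers Cd14, a coreceptor for bacterial lipopolysaccharide, alone reached 10 counts in a cell, and Ptprc, the common leukocyte antigen, was at 0 in all 12. The immune sum was 0 to 266 CPM in Tnmd-/- and 0 to 361 CPM in WT cells. It was 361 CPM in WT cell 5 and 112 CPM in WT cell 10, the cells with Angptl2, but also 266 CPM in Tnmd-/- cell 9, which had 2 counts of Angptl2. The mural sum, 0 to 118 CPM in Tnmd-/- and 0 to 641 CPM in WT cells, came from Cspg4 alone, with the other 6 mural markers at 0. The tendon fibroblast sum was 2840 to 106018 CPM in Tnmd-/- and 42680 to 198646 CPM in WT cells, and its lowest value was in Tnmd-/- cell 3. Of 14 tendon fibroblast markers, Tnmd and Scx included, 13 had at least 20 counts. Of these, 0 were 2-fold higher, 5 lower and 8 in between in the Tnmd-/- sum, beside 39.7% higher and 38.3% lower of all genes. The part of these markers in the ligand counts was not tested.

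The receptors of the VEGF and angiopoietin ligands were counted in few cells. Of 7 receptor genes 3 reached the 20 counts, and by the same 2-fold step 2 were higher, each through 1 cell, and 1 was lower without Tnmd. Their median log2 ratio was that of Flt4, a bound, against a median of 0.08 over all genes tested. The counts of higher and lower genes in this and the following lists stand beside the 39.7% and 38.3% of all genes. Flt1, the receptor shared by Vegfa, Vegfb and Pgf, had 1859 against 4 counts (log2 ratio 9.47, counting interval 8.11 to 11.34), and 1857 of them came from Tnmd-/- cell 10. That cell also held 218 counts of Vegfa and 176 of the VEGF coreceptor Nrp2, which makes it the only cell with a VEGF ligand and a receptor or coreceptor for it at 10 counts or more. Flt4, the receptor for Vegfc, had 115 counts in Tnmd-/- cell 20 and 0 in every other cell, at least 5.87 higher on the log2 scale against a floor of 3 counts in the WT sum. Nrp2 had 181 against 1860 counts, a log2 ratio of -2.75 (-2.98 to -2.53), with 1679 counts in WT cell 14. Kdr, the main signalling receptor for Vegfa, had 2 counts in all.

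Genes reported as receptors for angiopoietin-like proteins reached higher levels. Of 8 such genes 5 had at least 20 counts, of which 0 were 2-fold higher, 2 lower and 3 in between (median log2 ratio -0.41). Sdc4, a cell surface heparan sulfate proteoglycan, had 1136 against 1365 CPM, a log2 ratio of -0.27 (-0.28 to -0.25). Itgb1, the integrin beta chain, had 311 against 691 CPM, a log2 ratio of -1.15 (-1.18 to -1.12). Itga5, its partner in the fibronectin receptor, had a log2 ratio of -0.41 (-0.47 to -0.35).

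Of further members of the ligand families, Vegfd, Angpt4, Angptl1, Angptl6 and Angptl8 had 0 counts in all 12 cells, as did 5 of the 9 ligands described above. A count of 0 was frequent: 55.7% of 21992 protein-coding symbols in the table had none in any cell. At this depth these 10 genes are below the floor, which does not show that they are absent from tendon cells.

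Among 20 other secreted factors with a pro-angiogenic role 12 had at least 20 counts, against 4 of the 9 ligands, and of these 12 factors 3 were 2-fold higher and 8 lower without Tnmd (median log2 ratio -2.04). The highest per length were the matricellular proteins Ccn2, with a log2 ratio of -2.19 (-2.22 to -2.17), and Ccn1, with 1.01 (0.98 to 1.05), and the matrix protein Ecm1, with -0.58 (-0.60 to -0.56). Per length in the WT sum, Ccn2 stood at 555 CPM per kb and the most abundant of the 9 ligands, Angptl7, at 143.

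The inhibitors of angiogenesis held the most abundant gene of all these lists, Dcn. Of 18 inhibitor genes, Tnmd included, 12 had at least 20 counts, of which 3 were higher, 5 lower and 4 in between (median log2 ratio -0.40). This small leucine-rich proteoglycan had 40010 against 56340 CPM, a log2 ratio of -0.49 (-0.50 to -0.49). Serpinf1, which codes for pigment epithelium-derived factor, had a log2 ratio of -0.31 (-0.32 to -0.29), and Sparc, a collagen-binding matrix protein, had -1.26 (-1.28 to -1.24). Cnmd, the paralogue of Tnmd in cartilage, had 0 counts in all 12 cells.

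**Figure D4:**
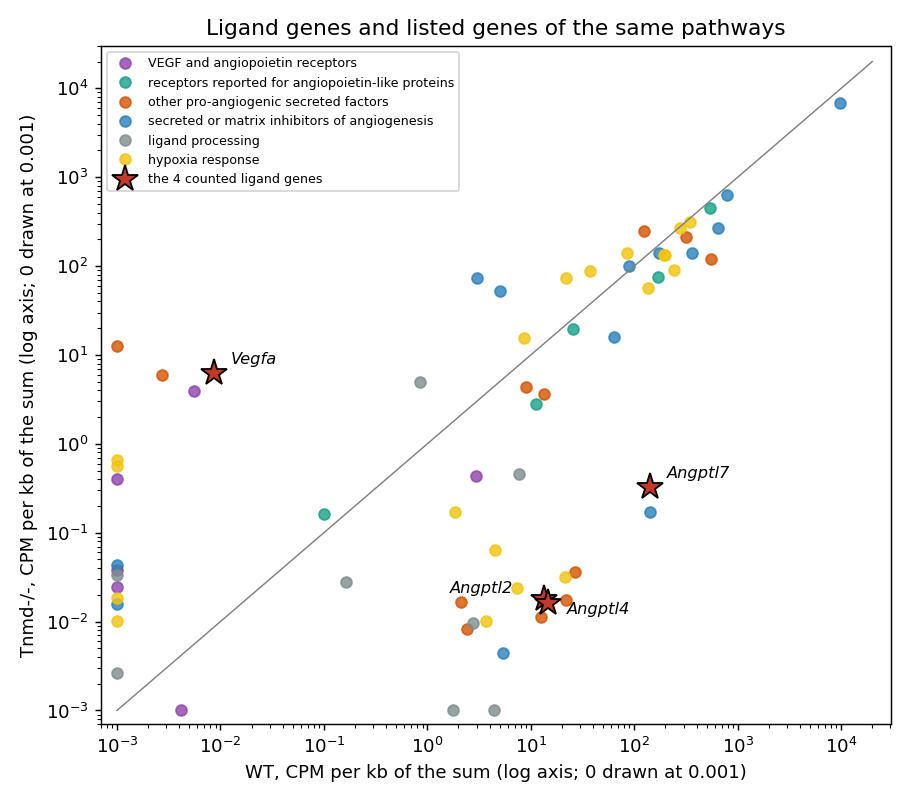
Level in the WT sum (horizontal log axis) against the Tnmd-/- sum (vertical log axis), both in CPM per kb of exon, of the 4 counted ligands (stars) and of the listed receptors, secreted factors, inhibitors, processing enzymes and hypoxia genes with counts (dots), with 0 drawn at 0.001 and a line of equality. Vegfa lies above the line at 6.23 against 0.00873, the 3 angiopoietin-like genes lie below it, and the dot at the top right is Dcn.

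Enzymes that process these ligands include the proprotein convertases, which cleave Vegfc and several angiopoietin-like proteins. Of 12 processing genes 6 reached 20 counts, and 1 of them was higher and 5 were lower without Tnmd (median log2 ratio -5.09, with genes at 0 in a genotype at their bound). The convertase Pcsk5 had 2497 of its counts in Tnmd-/- cell 1, the cell with most Vegfa, and 660 in WT cell 10, the cell with Angptl2 and Angptl4, and its log2 ratio was 2.52 (2.40 to 2.65). Plat, the tissue plasminogen activator, had 2547 counts in WT cell 5 and a log2 ratio of -4.05 (-4.35 to -3.76). Pcsk7 had 1214 counts in WT cell 2 and 0 elsewhere, a log2 ratio of -8.05 or less, with the Tnmd-/- sum set to 3 counts.

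Vegfa and Angptl4 are both known targets of the hypoxia-inducible factors. Vegfa was detected in 3 cells and Angptl4 in 1 other cell, which is too few to read their separation. A shared regulation was not tested. Of 21 hypoxia response genes 17 had at least 20 counts, of which 4 were higher, 7 lower and 6 in between (median log2 ratio -0.53). The glycolytic genes Gapdh and Aldoa had log2 ratios of -0.15 (-0.16 to -0.13) and -0.04 (-0.06 to -0.02), and Higd1a, of the mitochondrial hypoxia response, had -1.45 (-1.48 to -1.42). A further 5 genes are named after their values were seen. Egln3, a prolyl hydroxylase that marks hypoxia-inducible factors for decay, had 3061 of its counts in WT cell 10, the single cell with Angptl4, and 2 at most in any other cell. Adm, the vasoactive peptide adrenomedullin, had 1905 counts in that cell and 2 at most elsewhere. The rest of the list went both ways in the same cell. Ndrg1 stood at 9.40 CPM there, at 1.11 CPM in WT cell 14 and at 734 to 2222 CPM in WT cells 1, 2, 4 and 5. Egln1, another prolyl hydroxylase, had 4 counts in WT cell 10. Gapdh and Aldoa had their highest levels of any cell there, at 2673 and 2172 CPM. Hif1a, which codes for the regulated subunit, had 1195, 3 and 5527 counts in Tnmd-/- cells 1, 3 and 10, the cells with Vegfa, and 383 in WT cell 10, but also 4956 and 3575 in Tnmd-/- cells 9 and 20, which had 0 counts of Vegfa.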

How the data were processed

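Single-cell RNA sequencing (Smart-Seq2 amplification, Nextera XT libraries) of 6 Tnmd-/- ScxGFP+ and 6 WT ScxGFP+ cells was analysed. Per the study's methods and the submitters' processing notes, reads were trimmed, reads not of mouse were removed, and the rest were checked with FastQC 0.11.9 and MultiQC 1.9, aligned to GRCm38 with the Ensembl 96 annotation (STAR 2.5.1b) and assigned to exons (featureCounts, Subread 2.0.0). The deposited table holds the raw counts that resulted, without normalization or molecular identifiers. The strand setting of the counting is not given in the sources used here. Columns were matched to cells by the names in the labels, and 0 pairs of cells had identical counts.

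The members and the gene lists were chosen with earlier results of these data known. Named are the 9 ligands, Tnmd, and of each list of pathway genes the 3 highest per length over all cells, with any other gene given as a marker, as absent, or as chosen after its values were seen. Counts were summed per genotype and scaled to CPM by the summed total. Intervals are exact Poisson (sums) or exact Clopper-Pearson (shares and ratios) at 95%. Those of the ratios were checked on simulated Poisson counts without spread between cells. That check cannot show how they hold for real cells. Where 1 genotype had no counts its sum was set to 3 to give a bound, and ratios of sums that were both 3 or less were not computed. The degradation level came from the annotation of the authors' heat map, not from the labels. Promoter windows came from RefSeq. Alternatives were other scalings (DESeq2 1.42.0, edgeR 4.0.16 TMM, equal weights, totals without mitochondrial and the 50 most counted genes), 1 or 5 CPM added, other minima and thresholds, thinning, each degradation level and each cell left out. Python 3.11.15, numpy 2.4.6, pandas 2.3.3, scipy 1.17.1 and R 4.3.3 were used.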

Additional observations from a re-analysis of the deposited data

Results flagged for a closer look

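Each of the 4 counted ligands was examined for a cell far from the other 5 of its genotype, on the scale of log2(CPM + 1), by the gap of the highest or lowest cell divided by the range (Dixon's test). Of 8 sets of 6 cells, 2 held such a cell, where chance flags about 1 in 20 sets of values without ties. Both sets consisted mostly of cells at 0, so their number is not read against that share. Angptl4 in WT cell 10 stood at 206 CPM (2799 counts) with the other 5 WT cells at 0, which makes the gap 1.00 of the range by construction. Angptl4 in Tnmd-/- cell 7 stood at 1.12 CPM, which is 1 count in the shallowest cell, with 4 cells at 0 and a gap of 0.877 of the range.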

How the results depend on the processing

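All 77 log2 ratios of Vegfa, Angptl2, Angptl4 and Angptl7 computed under the alternatives had the sign of the ratio over all cells, and 58 of them lay inside its counting interval. Left out are settings without a ratio: Angptl2 and Angptl4 in more degraded cells only, and Angptl4 without WT cell 10. Adding the same CPM to both sums cannot change a sign. With 25 counts or fewer in the smaller sum, the other settings left little room for such a change. Over the alternatives that gave a ratio, that of Vegfa ran from 2.65 to 10.95 and that of Angptl2 from -10.19 to -4.14. The ratio of Angptl4 ran from -10.97 to -3.50 and that of Angptl7 from -11.73 to -3.44. Adding 5 CPM to both sums gave the values nearest 0 for Vegfa, Angptl2 and Angptl4, and DESeq2 size factors gave that for Angptl7. With more degraded cells only, the number of ligands at least 2-fold lower was 1 in place of 3, since Angptl2 and Angptl4 had too few counts there, and without WT cell 10 it was 2. The number of Tnmd-/- combinations of ligand and cell with a detection, 4 at 10 counts or more, was 13 at 1 count or more, 2 at 100 counts or more, 7 after thinning to 892713 counts (1 count or more) and 7 at 1 CPM or more. In the WT cells it was 6 to 9. Without length, Angptl2 ranked 2 and Angptl4 ranked 3 among the ligands in the WT sum, in place of 3 and 2. With a minimum of 100 counts over all cells, 37.1% of genes were 2-fold higher and 39.7% lower in the Tnmd-/- sum, and with 1 count 35.2% and 30.0%. No paired analysis was possible because the numbers in the labels are those of picked cells and pair nothing. With 6 cells of unnamed animals per genotype, differences between animals, picked cells and genotypes cannot be told apart.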
